A study of Mus musculus with 8 samples.

Results

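The 10 genes described here encode amino acid transporters of liver cells: the system A carriers Slc38a1, Slc38a2 and Slc38a4, the system N carrier Slc38a3, the cationic carriers Slc7a1 and Slc7a2, the system L genes Slc7a5, Slc3a2 and Slc43a1, and the neutral exchanger Slc1a4. They were chosen by gene symbol from a table of 56077 genes and loci, with no measured value in the rule, and each symbol matched 1 row. Whole livers came from C57BL/6 mice aged 6 months, 4 of them wild-type (WT) and 4 heterozygous for eIF2α (Het), the subunit of translation initiation factor 2 that is phosphorylated under stress. The Het genotype is written as flox/+ in the labels, which name no recombinase, so the cells in which the allele would be altered are not given, and the growth protocol calls mice of both groups lean and wild-type. All mice were fed freely and killed in the fed state, and sequencing was done on total RNA after removal of ribosomal RNA. Libraries keep the column names of the deposited table, with W32, W33, W76, W90 for WT mice and H11, H12, H15, H75 for Het mice.

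Hepatocytes take up amino acids from portal blood for protein synthesis, gluconeogenesis and urea formation. System A couples the entry of small neutral amino acids such as alanine to sodium, system N carries glutamine, histidine and asparagine, system L exchanges large neutral amino acids, and the cationic carriers take arginine, lysine and ornithine. When amino acids run short, the kinase GCN2 phosphorylates eIF2α, translation of the transcription factor ATF4 increases, and ATF4 activates genes that include asparagine synthetase and several of these carriers. Slc38a2 is the system A gene best known for this response, and glucagon and cyclic AMP also induce it in liver.

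Library totals ran from 22178028 to 28564400 counts. Library H15 was singled out by its effect on the calls. Leaving it out moved the number of genes past an adjusted p of 0.05 in edgeR's quasi-likelihood test from 0 to 252 of all genes tested. Results for the transporters are therefore given with and without it where it matters. Because H15 was picked by this result, p-values without it may be too small and are no independent support. Its TMM scaling factor of 1.06 lay within the WT factors of 1 to 1.06, whereas H12 had 0.909 and H75 0.9. Eif2s1, the gene of eIF2α, was at 28.4, 28.8, 32.8 and 30.1 CPM (read counts scaled to library size in the usual way) in W32, W33, W76 and W90, and at 20.5, 22.3, 20.8 and 25.1 CPM in H11, H12, H15 and H75. Its groups did not overlap, as for 2.32% of all genes in this direction (fold 0.738, adjusted p = 0.315 with edgeR and 0.0207 with DESeq2). No label says whether mice shared a litter. The tests treat all mice as independent, so the p-values may be too small if litters were shared.

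All 10 transporters passed the filter on low counts, and 0 of them passed an adjusted p of 0.05 in edgeR's quasi-likelihood test, where 0% of the 14261 genes tested passed in either direction. At an unadjusted p under 0.05, 1 transporter was higher (Slc38a2) and 1 was lower (Slc1a4) in Het livers, against 4.9% of all genes higher and 4.44% lower. DESeq2 called Slc38a2 as higher, against 0.639% of genes called higher and 0.428% called lower. With limma-voom, 0 transporters and 0 of all genes tested were called. Slc38a2 was also the 1 transporter whose 4 Het values all lay above its 4 WT values, which held for 2.06% of all genes, and 0 transporters lay wholly below, against 2.32%. The median log2 fold change of the 10 was 0.12, against 0.0051 for all genes tested, with 6 higher and 4 lower means.

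**Figure D1:**
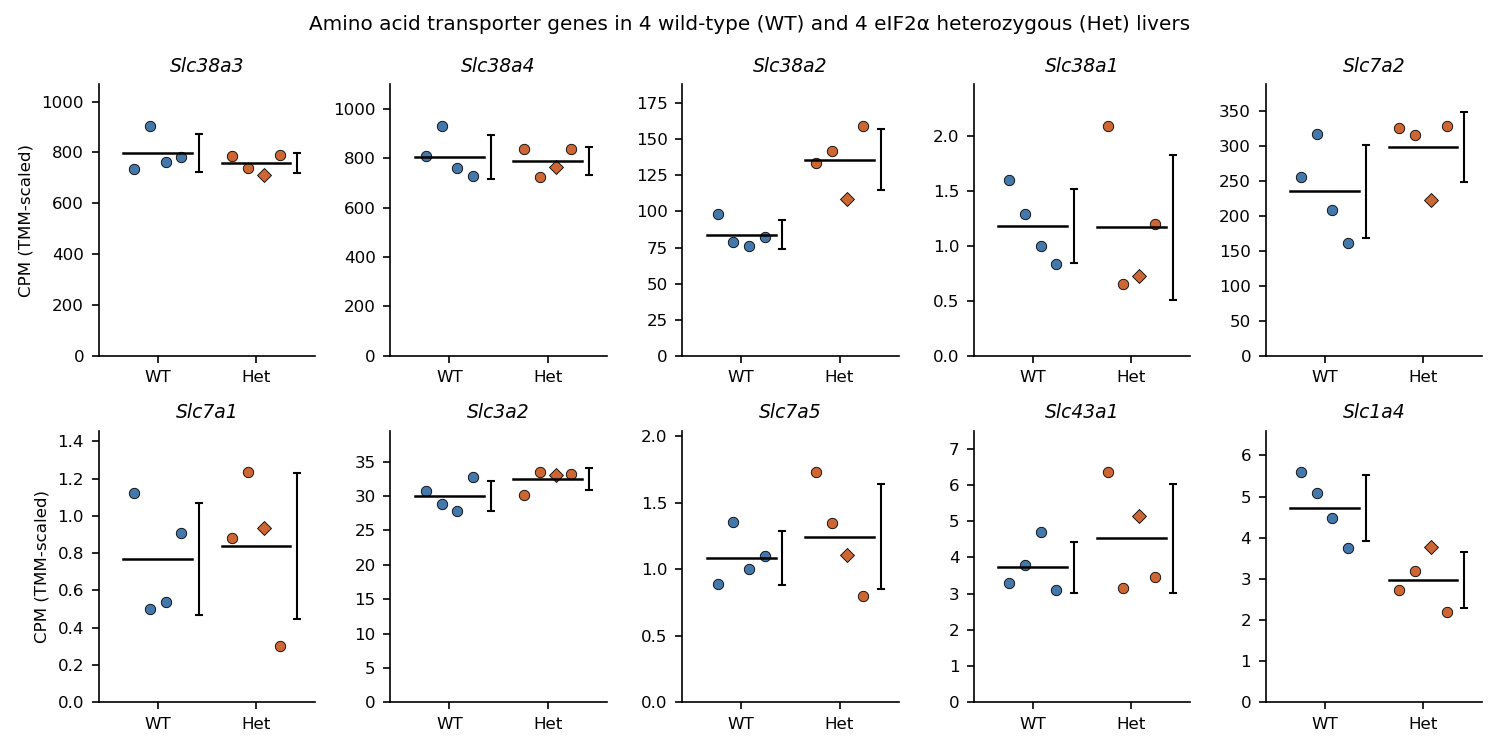
CPM of each transporter gene (vertical axes, each from 0) in the 4 WT (blue) and 4 Het (orange) livers, with 1 point per library, a diamond for H15, the group mean as a line and its SD as an error bar. Slc38a2 is the 1 gene whose groups do not overlap, and in Slc1a4 the H15 value lies just above the lowest WT value.

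Slc38a2, the sodium-coupled system A carrier SNAT2, had the highest fold of the 10 genes. It was at 98.6 CPM in W32, 78.9 in W33, 76.3 in W76 and 82.3 in W90. In the Het group H11 had 133.5 CPM, H12 141.9, H15 108.5 and H75 159.2. Every Het library thus exceeded every WT library, and the gap was narrowest between W32 and H15. The means were 84.0 ± 9.995 CPM in WT and 136 ± 21.1 CPM in Het livers (SD, n = 4 each), and each library held 1981 to 3684 reads of the gene.

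The log2 fold change of Slc38a2 was 0.69 (SE 0.13), a fold of 1.62 with a 95% interval of 1.32 to 1.98. It did not pass over all genes with edgeR's quasi-likelihood test (adjusted p = 0.232, range over 21 alternatives 1.99e-07 to 0.608), while DESeq2 gave an adjusted p of 0.00101. Without H15 the log2 fold change was 0.79 and edgeR's test called the gene (adjusted p = 0.0139). The authors' deposited table gave Slc38a2 an adjusted p of 0.000896 and a fold of 1.62, but did not mark it as significant; the smallest absolute log2 fold change among the 74 genes marked in the authors' deposited table is 1.001. Because the tissue is bulk liver, more cells that express a gene and more RNA per cell cannot be told apart.

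For the other system A genes no difference of that kind was seen. Slc38a4, the SNAT4 carrier that is typical of hepatocytes, was at 808, 930, 760 and 727 CPM in W32, W33, W76 and W90, and at 836, 723, 763 and 837 CPM in H11, H12, H15 and H75. Its groups overlapped throughout, and its fold was 0.979 with a 95% interval of 0.830 to 1.16 (adjusted p = 0.950, edgeR), below the interval of Slc38a2. The sign of this small difference turned when W33 or H12 was left out. Slc38a1, the SNAT1 carrier that is better known from other tissues, rested on only 17 to 52 reads per library.

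Slc38a1 was at 1.601, 1.29, 1.002 and 0.832 CPM in W32, W33, W76 and W90, and at 2.09, 0.655, 0.722 and 1.201 CPM in H11, H12, H15 and H75. The Het values spread wider than the WT values and enclosed them. At this depth the 95% interval of the fold ran from 0.532 to 1.83, so a fold of the size seen for Slc38a2 lies inside it, and the sign of the estimate turned when W32, W33, H12 or H15 was left out.

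Within a library, the ratio of 2 genes does not depend on the scaling of library sizes. Per kilobase of gene length, Slc38a2 amounted to 10.3, 7.16, 8.47 and 9.55% of Slc38a4 in W32, W33, W76 and W90, and to 13.5, 16.6, 12.0 and 16.04% in H11, H12, H15 and H75. All 4 Het ratios were above all 4 WT ratios. Slc38a2 was already separated in CPM and Slc38a4 differed little between the groups. This ratio and the shares below therefore repeat that separation, free of the scaling, and are no further support. Slc38a2 made up 8.13 ± 1.15% of the summed per-kilobase level of the 3 system A genes in WT livers and 12.7 ± 1.65% in Het livers (SD, n = 4 each). These levels depend on the gene length: with the union of annotated exons the shares were 4.82 ± 0.706% and 7.65 ± 1.05%, again with every Het library above every WT library. Because Slc38a1 adds little to the sum, a change of length could hardly alter this separation. Slc38a4 had the highest level of the 3 genes in every library with either length.

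The 3 system A genes lie side by side on the minus strand of chromosome 15 in GRCm38, the assembly that mm10 denotes, within 485 kb. Slc38a1 (ENSMUSG00000023169) spans 96571418 to 96642913, Slc38a2 (ENSMUSG00000022462) spans 96687392 to 96699730, and Slc38a4 (ENSMUSG00000022464) spans 96994820 to 97055956. Their exons overlap those of no other annotated gene. The nearest listed neighbours thus had fold estimates of 0.986 (Slc38a1) and 0.979 (Slc38a4), beside 1.62 for Slc38a2.

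**Figure D2:**
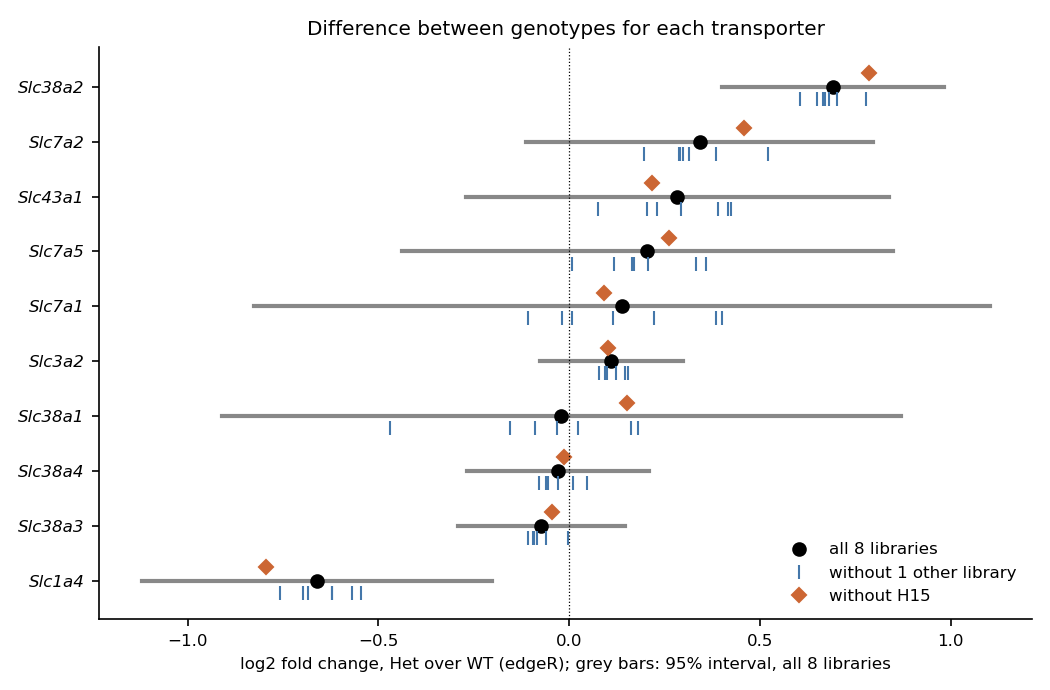
Log2 fold change of Het over WT for each transporter from edgeR (horizontal axis), with all 8 libraries (black points, grey 95% intervals), without H15 (orange diamonds) and without each other library (blue ticks). Slc38a2 stays between 0.61 and 0.79 and Slc1a4 between -0.80 and -0.55, while Slc38a1, Slc38a4 and Slc7a1 fall on both sides of 0.

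Slc38a3, the system N carrier SNAT3, which can move glutamine in either direction across the hepatocyte membrane, was at 736, 905, 763 and 782 CPM in W32, W33, W76 and W90. It was at 788, 738, 712 and 792 CPM in H11, H12, H15 and H75. The groups overlapped, with a mean of 797 ± 74.4 CPM in WT and 757 ± 39.0 CPM in Het livers (SD, n = 4 each). The fold of 0.951 had a 95% interval of 0.817 to 1.11 (adjusted p = 0.846, edgeR), an interval that does not reach the fold of Slc38a2. The gene (ENSMUSG00000010064) lies on chromosome 9 from 107650634 to 107669530, on the minus strand.

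Slc7a2, which encodes the cationic carrier CAT2, the main arginine carrier gene of liver, was at 257 CPM in W32, 317 in W33, 208 in W76 and 161 in W90. In the Het group H11 had 326 CPM, H12 316, H15 224 and H75 329. H11, H12 and H75 lay close together near the highest WT library, and H15 lay inside the WT range. The fold was 1.27 with a 95% interval of 0.925 to 1.74 (adjusted p = 0.641, edgeR). Without H15 the log2 fold change went from 0.34 to 0.46, still short of the threshold (adjusted p = 0.302, edgeR, range over 21 alternatives 0.202 to 0.938). The gene (ENSMUSG00000031596) lies on chromosome 8 from 40862396 to 40922308 on the plus strand, and its exons overlap the lincRNA Gm26584 on the other strand. Sources used here do not say whether strand was used in counting, so reads of the overlapping RNA and of Slc7a2 cannot be told apart there, and counts per gene do not separate the CAT2 splice forms.

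Slc7a1, the CAT1 carrier that most tissues other than liver use, had few reads, 6 to 33 per library. It was at 1.12, 0.5003, 0.540 and 0.908 CPM in W32, W33, W76 and W90, and at 0.883, 1.23, 0.935 and 0.300 CPM in H11, H12, H15 and H75. Highest and lowest values were both found among Het libraries. The 95% interval of the fold ran from 0.564 to 2.15, and the sign turned without W33 or H12. Slc7a1 (ENSMUSG00000041313) lies on the minus strand of chromosome 5 from 148327410 to 148399904.

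System L was represented by Slc3a2, the heavy chain CD98 that carries several light chains to the membrane, by Slc7a5, its light chain LAT1, and by Slc43a1, the LAT3 carrier that needs no heavy chain. Slc3a2 was at 30.7, 28.8, 27.9 and 32.8 CPM in W32, W33, W76 and W90, and at 30.1, 33.4, 33.01 and 33.2 CPM in H11, H12, H15 and H75. H12, H15 and H75 were all slightly above the highest WT library and H11 was inside the WT range. Leaving out H11 therefore had to separate the groups, which is no support for a difference. The fold was 1.08 with a narrow 95% interval of 0.948 to 1.23 (adjusted p = 0.708, edgeR).

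Slc7a5 was at 0.886, 1.36, 1.002 and 1.10 CPM in W32, W33, W76 and W90, and at 1.73, 1.35, 1.10 and 0.800 CPM in H11, H12, H15 and H75, from 16 to 43 reads. The groups overlapped, with a 95% interval of the fold from 0.738 to 1.80 (adjusted p = 0.854, edgeR). Slc43a1 was at 3.30, 3.79, 4.70 and 3.10 CPM in W32, W33, W76 and W90, and at 6.35, 3.16, 5.14 and 3.45 CPM in H11, H12, H15 and H75. H11 and H15 exceeded every WT library and H12 and H75 did not (fold 1.22, 95% interval 0.828 to 1.79, adjusted p = 0.749, edgeR).

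For both chains of the LAT1 transporter, no shared variation across the livers was detected. Slc7a5 rested on only 16 to 43 reads per library. The SD of Slc3a2 was only 7.22% of its mean in WT and 4.81% in Het livers, so shared variation could hardly have been detected. Log2 CPM of Slc7a5 and Slc3a2, with a pseudocount of 0.5 CPM, had a Pearson r of -0.20 over 8 libraries (exact two-sided permutation p = 0.635) and a Spearman rho of -0.19 (exact permutation p = 0.665). Without H11 and H75, the libraries farthest from the median of Slc7a5, r was 0.18. This was the 1 relation tested, and with library totals alone as the scaling its sign turned (r = 0.056, exact permutation p = 0.896). Slc7a5 stood at 2.91 ± 0.623% of Slc3a2 per kilobase in WT and 3.10 ± 1.12% in Het livers (SD, n = 4 each). Added over 6 light chain genes that pair with CD98 (Slc7a5, Slc7a6, Slc7a7, Slc7a8, Slc7a10 and Slc7a11), the level was 17.4 to 25.9% of Slc3a2 in WT and 18.3 to 29.8% in Het livers. Per kilobase, the heavy chain was thus above the sum of these light chains in every library.

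Slc3a2 (ENSMUSG00000010095) lies on chromosome 19 from 8706882 to 8723369, Slc7a5 (ENSMUSG00000040010) on chromosome 8 from 121881150 to 121907694, both on the minus strand, and Slc43a1 (ENSMUSG00000027075) on chromosome 2, plus strand, at positions 84838850 to 84863594.

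Slc1a4, the ASCT1 exchanger of alanine, serine, cysteine and threonine, had the lowest fold of the 10 genes. It was at 5.59, 5.07, 4.47 and 3.74 CPM in W32, W33, W76 and W90, and at 2.73, 3.20, 3.78 and 2.201 CPM in H11, H12, H15 and H75. Only W90 and H15 crossed, by less than 0.1 CPM. Leaving out either library therefore had to separate the groups, which is no support for a difference. The means were 4.72 ± 0.794 CPM and 2.98 ± 0.673 CPM (SD, n = 4 each), from 44 to 164 reads.

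The log2 fold change of Slc1a4 was -0.66 (SE 0.21), a fold of 0.632 with a 95% interval of 0.460 to 0.870. Over all genes it did not pass with edgeR's test (adjusted p = 0.406, range over 21 alternatives 0.0334 to 0.769) or with DESeq2 (adjusted p = 0.159). Without H15 the log2 fold change was -0.80 and DESeq2 called it (adjusted p = 0.0334), while edgeR did not (adjusted p = 0.108). Per kilobase, Slc38a2 stood at 13.1 to 18.5 times Slc1a4 in WT libraries and at 24.2 to 60.9 times in Het libraries. With exon-union lengths the ratios were 6.91 to 9.77 and 12.7 to 32.1 times. A change of length multiplies the ratio of every library by the same factor, so it cannot alter whether the groups overlap. These genes have the highest and the lowest fold of the listed transporters, so their separated ratio is no further support. Slc1a4 (ENSMUSG00000020142) lies on the minus strand of chromosome 11 from 20302180 to 20332713.

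The promoters of Slc38a2 and Slc1a4, the transporters with an unadjusted p under 0.05, are shown because ATF4 sites are known in genes of this family. RefSeq promoter windows on GRCm38.p6, of 250 bases before and 50 after a start site, matched 6 of the 10 genes, with 9 windows. They were searched on both strands for TGATGNAA, the core of composite C/EBP-ATF elements, for TGACGTCA and for TGACGCAA, motifs that do not contain each other. The stretches below run 5′ to 3′ on the minus strand from 150 bases before to 20 bases after the start, chr15:96699709-96699878 for Slc38a2 and chr11:20332694-20332863 for Slc1a4, with a motif match in capitals.
Slc38a2: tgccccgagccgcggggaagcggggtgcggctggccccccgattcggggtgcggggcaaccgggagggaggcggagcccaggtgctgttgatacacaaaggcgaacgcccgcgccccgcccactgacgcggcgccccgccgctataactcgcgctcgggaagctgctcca
Slc1a4: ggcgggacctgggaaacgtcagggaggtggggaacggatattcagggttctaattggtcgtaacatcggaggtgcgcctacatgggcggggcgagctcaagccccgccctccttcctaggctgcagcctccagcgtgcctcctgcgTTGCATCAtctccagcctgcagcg
The Slc1a4 window held 1 match to TGATGNAA on the other strand, TTGCATCA, from position -4 to 4 around the start site, counted without a position 0. That motif occurred in 3.97% of 32851 promoter windows of the same length. The Slc38a2 window held none of the 3 motifs; the amino acid response element described for Slc38a2 lies in its first intron, outside this window. The single other match among the 9 windows was TGACGCAA in the second listed window of Slc38a4, a motif found in 0.49% of windows; TGACGTCA, in 1.79% of windows, matched none of the 9. A match is a run of letters, not a measured site.

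Levels of the 10 transcripts, compared per kilobase of the gene length that the authors list, spanned more than 3 orders of magnitude. In WT livers Slc38a3 averaged 253 CPM per kb, Slc38a4 205, Slc7a2 64.1, Slc38a2 18.0 and Slc3a2 10.7. The low group held Slc43a1 at 1.47 CPM per kb, Slc1a4 at 1.202, Slc7a5 at 0.309, Slc38a1 at 0.169 and Slc7a1 at 0.107. Neighbours in this order whose WT ranges overlapped were Slc38a3 with Slc38a4, Slc43a1 with Slc1a4, and Slc38a1 with Slc7a1. Slc38a3 and Slc38a4 together therefore dominated, with 45.6 and 37.0% of the summed level.

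The order of the means was the same in Het livers, where Slc38a2 averaged 29.1 CPM per kb and Slc1a4 0.758. There the ranges of Slc38a3 and Slc38a4 no longer overlapped, nor did those of Slc43a1 and Slc1a4, while Slc7a5 overlapped Slc38a1 and Slc38a1 overlapped Slc7a1. Slc38a2 took 3.25% of the summed level of the 10 genes in WT and 5.15% in Het livers. The levels and their order depend on the length used. With exon-union lengths the WT means were 25.8 CPM per kb for Slc7a2, 9.51 for Slc38a2, 0.651 for Slc43a1, 0.0685 for Slc38a1 and 0.0666 for Slc7a1. The order changed too: Slc38a4 came before Slc38a3 (189 and 151 CPM per kb in WT), Slc1a4 before Slc43a1 in WT, and Slc7a1 before Slc38a1 in Het livers.

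**Figure D3:**
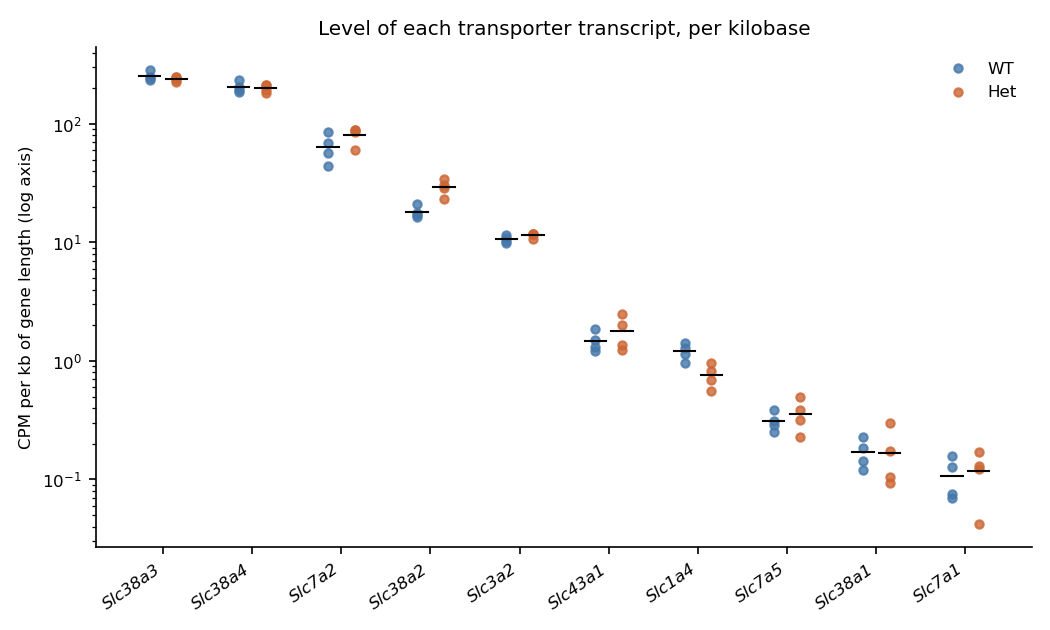
Level of each transporter transcript in CPM per kilobase of listed gene length (vertical log axis), with 1 point per library and the group mean as a line, WT in blue and Het in orange. Slc38a3 and Slc38a4 are above 180 CPM per kb in every library, and the lowest genes, Slc38a1 and Slc7a1, stay below 0.3.

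Other amino acid transporters gave the background of the pathway. Of 39 further genes in the table, 28 passed the filter, and 0 of them passed edgeR's test over all genes, 0 had an unadjusted p under 0.05 (against 9.34% of all genes), and 0 were called by DESeq2 or limma-voom. Their median log2 fold change was 0.059, from -0.40 to 0.33, with 16 higher and 12 lower means. The 13 tested plasma membrane carriers had a median of 0.18, the 8 lysosomal and endomembrane carriers of -0.13 and the 7 mitochondrial carriers of 0.033. None of the 28 separated the groups, against 2.06% of all genes with every Het value higher and 2.32% with every Het value lower.

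The lowest unadjusted p among these carriers belonged to Pqlc2, the lysosomal exporter of cationic amino acids, with 14.2 ± 2.28 CPM in WT and 11.9 ± 1.03 CPM in Het livers (SD, n = 4 each, adjusted p = 0.580, edgeR). Slc3a1, the heavy chain of the cystine and dibasic amino acid carrier, averaged 52.7 ± 2.29 and 60.0 ± 7.46 CPM, and Slc25a44, a mitochondrial carrier of branched-chain amino acids, 83.6 ± 7.16 and 72.0 ± 11.5 CPM. Slc16a10, the aromatic amino acid carrier TAT1, averaged 80.9 ± 16.3 and 95.1 ± 6.80 CPM.

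Slc6a6, the taurine carrier, was at 75.3, 77.0, 68.9 and 81.6 CPM in W32, W33, W76 and W90, and at 61.8, 36.4, 88.3 and 42.3 CPM in H11, H12, H15 and H75. H15 was above every WT library and the other Het libraries were below all of them. Without H15 its log2 fold change went from -0.40 to -0.69, and DESeq2 then called it (adjusted p = 0.00504) while edgeR did not (adjusted p = 0.0822), over a range of 0.00504 to 0.950 in 21 alternatives.

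The most abundant of these carriers per kilobase differed little between the genotypes. Slc25a15, the mitochondrial ornithine carrier of the urea cycle, averaged 270 ± 28.6 CPM in WT and 276 ± 18.4 CPM in Het livers (SD, n = 4 each). Slc6a13, a carrier of GABA, taurine and betaine, averaged 158 ± 21.5 and 156 ± 11.8 CPM. Slc25a22, a mitochondrial glutamate carrier, averaged 187 ± 33.2 and 199 ± 46.2 CPM, and Slc25a13, the aspartate-glutamate carrier citrin, 186 ± 12.1 and 196 ± 18.2 CPM.

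Genes of the amino acid response were set beside Slc38a2 in the same libraries. Of 15 tested, 10 had higher and 5 lower means in Het livers, with a median log2 fold change of 0.20 and Ddit4 lowest at -0.52. In edgeR's test over all genes 0 passed, as did 0% of all genes. At an unadjusted p under 0.05, 4 were higher (Asns, Chac1, Cebpb and Nupr1) and 1 was lower, against 4.9% and 4.44% of all genes. DESeq2 called Asns, Chac1 and Cebpb as higher and 1 gene as lower, against 0.639% and 0.428% of all genes. The lower gene in both counts was Eif2s1, the gene of eIF2α, read here as the gene that the flox/+ label refers to. Asns, asparagine synthetase, was at 0.715 to 1.72 CPM in WT libraries and at 10.1, 13.9, 4.25 and 32.1 CPM in H11, H12, H15 and H75. H75 was highest and H15 lowest among Het libraries in both Asns and Slc38a2. Other response genes had another order: Chac1 was highest in H11 (5.46 CPM) and lowest in H12 (2.23 CPM). Cebpb was highest in H12 and lowest in H15. Chac1, which degrades glutathione, averaged 1.39 ± 0.609 CPM in WT and 3.71 ± 1.34 CPM in Het livers (SD, n = 4 each). Its groups did not overlap, as for 2.06% of all genes in this direction.

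Cebpb, a transcription factor that binds composite ATF4 elements, was at 17.7 to 23.5 CPM in WT libraries and at 35.3, 78.2, 17.1 and 49.8 CPM in H11, H12, H15 and H75, so H15 was below every WT library. Without H15, edgeR's test called Cebpb (adjusted p = 0.0223) and Asns (adjusted p = 0.00339), over ranges in 21 alternatives of 1.68e-07 to 0.794 and 1.07e-20 to 0.588. Atf4 itself was at 59.2, 66.5, 64.7 and 82.9 CPM in W32, W33, W76 and W90, and at 57.2, 91.4, 84.8 and 80.9 CPM in H11, H12, H15 and H75. Its groups overlapped (log2 fold change 0.20, SE 0.15, adjusted p = 0.712, edgeR), and its transcript level does not show how much ATF4 protein was made.

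**Figure D4:**
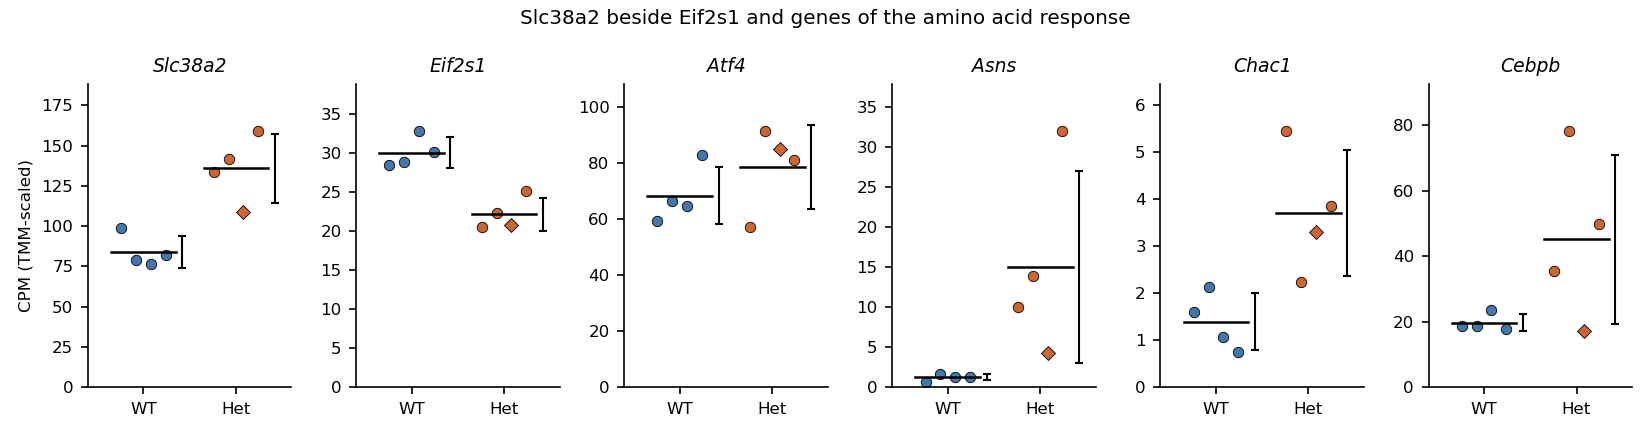
CPM of Slc38a2, Eif2s1 and 4 genes of the amino acid response (vertical axes, each from 0) in the 4 WT (blue) and 4 Het (orange) livers, with 1 point per library, a diamond for H15, the group mean as a line and its SD as an error bar. Asns, Chac1 and Cebpb were chosen for a low p in these data. Slc38a2, Eif2s1, Asns and Chac1 do not overlap between the groups, whereas Atf4 does and Cebpb does through H15. Of all genes tested, 2.06% do not overlap and are higher in Het livers, and 2.32% are lower.

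Genes that sense amino acids or control carrier turnover showed small differences. Of 20 tested, 0 passed edgeR's test over all genes and 0 were called by DESeq2 or limma-voom, and at an unadjusted p under 0.05 Sgk1 was higher and Mtor and Nedd4 were lower, against 4.9% of all genes higher and 4.44% lower. Sgk1, a kinase that protects carriers from ubiquitin-linked removal, was at 11.5 to 12.5 CPM in WT libraries and at 16.8, 15.9, 17.3 and 10.6 CPM in H11, H12, H15 and H75. H75, the library with the highest Slc38a2, was thus the lowest for Sgk1. Nedd4, a ubiquitin ligase, averaged 231 ± 15.8 CPM in WT and 199 ± 18.1 CPM in Het livers (SD, n = 4 each). Mtor, the kinase at the centre of amino acid sensing, averaged 41.3 ± 1.61 and 35.5 ± 3.43 CPM with no overlap, as for 2.32% of all genes (adjusted p = 0.498, edgeR), and Lamtor3, a subunit of its lysosomal anchor, 11.1 ± 0.783 and 12.8 ± 1.78 CPM.

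By Pearson r of log2 CPM over the 8 libraries, among 12475 other genes with a mean of at least 1 CPM, the genes most like Slc38a2 were Ip6k2 (r = 0.97), Rian (0.96), Zfp180 (0.96), Gm16348 (0.96) and Igfbp1 (0.95). These libraries share genotype groups and depth, so the values describe a pattern and test nothing. Ip6k2, an inositol hexakisphosphate kinase gene, was at 46.4 to 58.9 CPM in WT and 64.0 to 92.9 CPM in Het libraries. Igfbp1, an insulin-repressed gene of a protein that binds IGFs, was at 42.4 to 106 CPM in WT and 226 to 1172 CPM in Het libraries. Among the 10 transporters, the highest r was 0.77, between Slc38a3 and Slc38a4, and Slc38a2 reached 0.64 with Slc7a2. The strongest relation in absolute size was negative, an r of -0.81 between Slc38a2 and Slc1a4, the genes with the highest and the lowest fold between the groups.

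Hepatocyte markers were present in every library, with a summed level of 76760 to 103500 CPM over 6 of 6 genes in WT and 88100 to 97920 CPM in Het libraries. Summed levels of Kupffer cell markers (7 of 7 tested) were 90.9 to 220 CPM in WT and 91.5 to 212 CPM in Het libraries. Sinusoidal endothelial markers (6 of 6) were at 112 to 157 and 130 to 194 CPM, and biliary markers (5 of 5) at 34.2 to 87.1 and 40.9 to 101 CPM. Neutrophil markers, of which 2 of 6 passed the filter, were at 0.416 to 0.783 and 0.680 to 3.54 CPM, with Elane, Ly6g, Mpo and Retnlg at most 0.350 CPM. Lymphocyte markers (1 of 6 tested) were at 0.643 to 2.69 and 1.12 to 2.85 CPM, and stellate cell markers (6 of 6) at 178 to 216 and 101 to 254 CPM. Adipocyte markers (1 of 4 tested, with Lep at 0) ranged from 2.38 to 9.83 CPM in WT and from 0.602 to 0.900 CPM in Het libraries. At an unadjusted p under 0.05, where 4.9% of all genes were higher and 4.44% lower, both tested neutrophil genes and 1 gene each of the hepatocyte, endothelial, biliary and pancreas lists were higher, and 1 adipocyte gene was lower. Exocrine pancreas markers (1 of 4 tested, with Cpa1, Prss2 and Pnlip at 0) ranged from 5.55 to 10.97 and from 8.07 to 17.1 CPM. The part of other cell types in the level of the low transporters Slc7a1, Slc7a5, Slc38a1, Slc43a1 and Slc1a4 was not tested.

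Zonation markers overlapped between the groups. Pericentral hepatocyte genes summed to 4983 to 6392 CPM in WT and 5838 to 7635 CPM in Het libraries, and periportal genes to 5260 to 5954 and 5850 to 8425 CPM, with 1 gene of each list higher at an unadjusted p under 0.05.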

How the data were processed

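The authors' deposited count table holds estimated counts per gene, not normalized, and 90% of its values are whole numbers, so reads were split between features. Per the submitters' processing notes, the tools were SAMtools 1.9, GATK 3.8, Bowtie2 2.2.9 and fastp 0.19.5, with no role given, and the genome was mm10. No source used here names the counting program, the annotation or the strand setting. The deposited table of comparisons holds, for each gene, its length, a fold (ratio) with its log2, and a p-value before and after adjustment, per the file headers; 99.5% of its signs are those of Het over WT.

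Columns were grouped by first letter. Counts were rounded, filtered with filterByExpr (14261 genes left), scaled with TMM and fitted in edgeR 4.0.16 (quasi-likelihood F-test, legacy fit) in R 4.3.3, adjusted over all genes by Benjamini-Hochberg, with a threshold of 0.05. A standard error is the log2 fold change over the square root of F. Intervals are at 95%. Alternatives included DESeq2 1.42.0 and limma-voom (limma 3.58.1), other scalings and filters and leaving out each library. Added after seeing the data were DESeq2 and limma-voom without H15 and lengths from the union of annotated exons. Scripts were tested on simulated data. No library was a copy of another: pairs within a group had a chi-square of 20.2 to 163 per gene.

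The 10 genes and the lists were chosen with earlier results of these data known. Named genes were the 10, the 5 of lowest p and the 5 of highest level per kilobase among other transporters, the 4 of lowest p in the response and sensing lists, Eif2s1, Atf4, and the 5 most like Slc38a2; Slc7a11 was named after its values were seen. Positions are from GENCODE M21 and promoters from RefSeq on GRCm38.p6.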

Additional observations from a re-analysis of the deposited data

Results flagged for a closer look

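Of 56 groups of 4 libraries checked (28 named genes in WT and Het), 3 had a library whose gap to the nearest other exceeded Dixon's 95% limit; chance flags about 1 in 20. Slc7a2 was at 224 CPM in H15 and at 316 to 329 CPM in the other Het libraries (gap of 0.876 of the range). Slc16a10 was at 84.9 CPM in H15 and at 98.4 to 98.7 CPM in the other Het libraries (0.977 of the range). Slc3a2 was at 30.1 CPM in H11 and at 33.01 to 33.4 CPM in the other Het libraries (0.870 of the range).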

How the results depend on the processing

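Of the 10 transporters, 7 kept the sign of their log2 fold change under every alternative that was run, and 3 did not. Slc38a2 ran from 0.59 to 0.79, and its adjusted p passed with DESeq2, without H15 in edgeR, and with DESeq2 and limma-voom without H15. The number of transporters called was 0 with edgeR and all libraries, 1 with DESeq2, 1 with limma-voom without H15 and 2 with DESeq2 without H15, and 0 to 1 when each library was left out, 1 being without H15. The number whose groups did not overlap was 1, and 1 to 2 when each library was left out, 2 being without W90, H11 or H15. With all 8 libraries, 2.06% of all genes tested lay wholly higher and 2.32% wholly lower in Het livers. The share with 1 library left out was not counted, and groups separate more easily with fewer libraries. Of the other transporters, DESeq2 without H15 called 1 (Slc6a6), and the other settings called 0. Over all genes the calls were 0 with edgeR, 0 with limma-voom, 18 with no filter and 152 with DESeq2. They were 1 each with the newer edgeR fit, a robust fit, an adjusted p under 0.1 and unannotated loci removed. Without H15 they were 757 with DESeq2 and 197 with limma-voom. When each library was left out, the calls in edgeR ran from 0 to 252, 252 being without H15 and 2 without W32. Slc38a1 (log2 fold change -0.021) ran from -0.47 to 0.18 when each library was left out, and was 0.16 with DESeq2 and 0.027 with limma-voom without H15. Slc38a4 (-0.030) ran from -0.079 to 0.048 and Slc7a1 (0.14) from -0.11 to 0.40 when each library was left out. With library totals alone, a scaling that shifts the median over all genes by -0.084 on the log2 scale, Slc25a15, Slc25a22 and Slc25a13 turned to -0.055, -0.015 and -0.016. Leaving out each library gave -0.033 to 0.094 for Slc25a15, -0.098 to 0.058 for Slc6a13 and -0.042 to 0.22 for Slc25a22. The r of Slc7a5 with Slc3a2 was 0.056 with library totals alone and -0.44 to -0.0042 when each library was left out. The cause of these changes was not tested. Slc7a1 had no value with a minimum of 1 CPM in 4 libraries, which it did not pass. No paired analysis was possible because the columns of the count table carry no replicate number. Depth limited Slc38a1, Slc7a1 and Slc7a5 most, at 6 to 52 reads per library.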

Other observations

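Slc7a11, the light chain of the cystine-glutamate exchanger and a known ATF4 target, did not pass the filter on low counts and was singled out after its values were seen. It had 1, 1, 2 and 1 reads in W32, W33, W76 and W90, and 10, 6, 9 and 6 reads in H11, H12, H15 and H75. Every Het library was above every WT library, H15 included, at 0.0341 to 0.0771 CPM in WT and 0.231 to 0.402 CPM in Het libraries. The share of genes below the filter whose groups separate in this way was not counted, so this separation has no background. With no filter, edgeR's quasi-likelihood test put the difference at 2.72 on the log2 scale (SE 0.68, adjusted p = 0.201), and DESeq2 at 2.85 (SE 0.90), with no adjusted p. At so few reads the size of the difference is uncertain.

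The other 10 transporters below the filter were at most 0.450 CPM in any library, the highest being Slc25a2, a mitochondrial ornithine carrier, and Slc7a10 had no reads in any library.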
